A study of Homo sapiens with 6 samples.

Results

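The interferon-response genes examined here were 41 named genes of the 19785 protein-coding genes in the annotation. They were chosen by name, as members of the transcriptional programme that interferons switch on, and not by any measured value. Earlier results of these data were, however, known when the list was chosen. Peaks of the small ubiquitin-related modifiers SUMO-2/3 were counted at their promoters, from 2 kb upstream to 1 kb downstream of any annotated transcription start site (TSS), and over their gene regions, the gene body with 10 kb on both sides.

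The peaks came from chromatin immunoprecipitation and sequencing (ChIP-seq) of HL-60 cells, an established human acute myeloid leukaemia (AML) line. Cells were mock-treated, treated with 2 µM Ara-C, a nucleoside analogue, or treated with 1 µM daunorubicin (DNR), an anthracycline, in each case for 2 h. Immunoprecipitated DNA of 3 biological replicates was pooled into 1 library per condition, so each condition had 1 peak list and no difference between lists had a replicate check. The study asked whether these drugs redistribute SUMOylated proteins on the genome, and 3 input samples of the series were not analysed here.

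On the nuclear chromosomes there were 44264 mock peaks, 72277 Ara-C peaks and 33354 DNR peaks. They gave peak positions only, so the depth of each library is unknown, and a difference in depth cannot be told apart from an effect of a drug. Shares carry 95% Wilson intervals and numbers of peaks carry exact Poisson intervals, which cover counting error only.

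Interferons bind cell surface receptors and signal through receptor-bound kinases to transcription factors. Type I interferon assembles a factor containing IRF9 that binds the interferon-stimulated response element (ISRE), and the gamma-activated site (GAS) is another element of interferon-responsive promoters. The induced genes encode antiviral effectors, the modifier ISG15 with its enzymes, transcription factors that extend the response, and nuclear body proteins, of which PML and SP100 are themselves well known targets of SUMO.

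The promoters of the 41 genes were first read as sequence, from 250 bp before to 50 bp after the canonical TSS in the GRCh37 assembly, which underlies hg19. The ISRE was searched as TTTC repeated after any 2 bases and the GAS as TTCNNNGAA, each on both strands and with overlapping matches counted. The ISRE was present in 22 of the 41 promoters, or 53.7% (38.7 to 67.9), against 3.32% of the 19503 coding genes with a canonical start. In 14 of the 22 it occurred more than once. The GAS was present in 11 promoters, or 26.8% (15.7 to 41.9), against 6.42% of coding genes. Further motifs were searched in the same way, and matches of different motifs may overlap. The AP-1 motif TGANTCA was in 7 promoters, or 17.1% (8.53 to 31.3), against 5.41%. The SP1 box GGGCGG was in 23, or 56.1%, against 61.8%, which lay inside the interval of the members. The ETS motif CCGGAAG was in 1, or 2.44% (0.432 to 12.6), against 14.1%. The 7 genes below had both an ISRE in this window and a mock SUMO-2/3 promoter peak. Their sites, those used in the comparison with the peaks further on, are shown as 30 bases in the direction of transcription, with the ISRE in capitals. Positions are in hg19.

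ISG15, chr1:948754-948783, plus strand: catgcctcggGAAAGGGAAAccgaaactga
HERC5, chr4:89378186-89378215, plus strand: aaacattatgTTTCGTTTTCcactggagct
IFIT1, chr10:91152267-91152296, plus strand: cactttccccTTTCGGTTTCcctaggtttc
IFIT3, chr10:91087622-91087651, plus strand: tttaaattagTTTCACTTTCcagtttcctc
ISG20, chr15:89182168-89182197, plus strand: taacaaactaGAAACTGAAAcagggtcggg
IFITM3, chr11:320893-320922, minus strand: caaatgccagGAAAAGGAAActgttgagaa
RSAD2, chr2:7017753-7017782, plus strand: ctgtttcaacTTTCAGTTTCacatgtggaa

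The member promoters were poor in CpG. The median ratio of observed to expected CpG was 0.424, against 0.779 over coding genes, and the median GC content was 55.7% against 63.7%. By this ratio 26 of the 41 genes fell in the lowest tertile of coding genes, 11 in the middle tertile and 4 in the highest.

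A SUMO-2/3 peak lay at the promoter of 10 of the 41 genes in mock-treated cells, or 24.4% (13.8 to 39.3), where the background over all coding genes was 25.3%. Under Ara-C 11 genes had one, or 26.8% (15.7 to 41.9), against 30.9% of coding genes. Under DNR 4 genes had one, or 9.76% (3.86 to 22.5), against 8.43% of coding genes. In each list the share over all coding genes lay inside the interval of the interferon-response genes. The DNR list was lowest for the members and for coding genes alike. The members had more starts, a median of 4 against 2, and longer promoter windows, 3336 bp against 3056 bp. With the canonical TSS alone their share was 17.1% against 22.5% in mock and 24.4% against 27.2% for Ara-C. Under DNR it stayed at 9.76%, above the background. Pooled over promoter windows, the members had 0.591 peaks per 10 kb in mock, against 0.757. The densities were 0.914 against 0.961 for Ara-C and 0.215 against 0.219 for DNR.

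Gene regions gave higher shares in every list. A peak was present in the region of 31 genes in mock, or 75.6% (60.7 to 86.2), where 65.0% of coding genes had one. For Ara-C it was 34 genes, or 82.9% (68.7 to 91.5), against 75.4%. Under DNR 24 genes had one, or 58.5% (43.4 to 72.2), against 49.7%. The members lay above the background in all 3 lists, and each interval included the background. Their regions had a median length of 45578 bp, close to the 46958 bp of coding genes. When only peaks of at least 200 bp were counted, the mock share fell to 43.9%, against 48.0% of coding genes, and the DNR share to 26.8%, against 30.4%, both then below the background. The Ara-C share, 61.0% against 59.5%, stayed above it. In the gene body without flanks the shares were 48.8% in mock, against 47.8%, 61.0% for Ara-C, against 58.2%, and 31.7% for DNR, against 35.9%. In the flanks without promoter windows they were 36.6% against 35.1%, 39.0% against 46.0% and 26.8% against 23.1%, so that Ara-C lay below the background there.

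**Figure D1:**
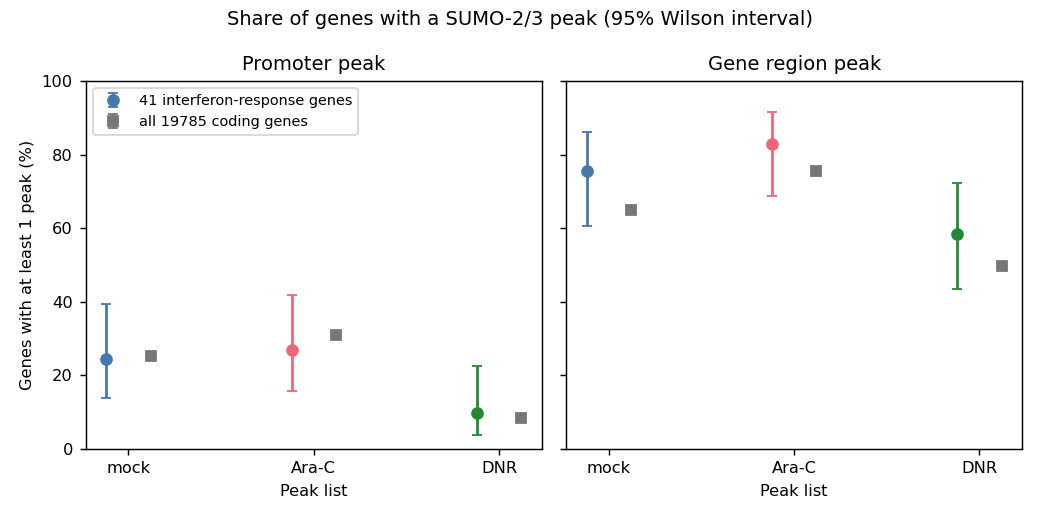
Share of genes with at least 1 SUMO-2/3 peak, in percent on the y axis, for each peak list on the x axis, at promoters (left) and gene regions (right). Coloured circles are the 41 interferon-response genes and grey squares all 19785 coding genes, with 95% Wilson intervals; each grey square lies inside the interval beside it, and DNR is lowest in both panels.

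Over the 3 lists together, 18 of the 41 genes had a promoter peak in at least 1 list, or 43.9% (29.9 to 59.0), and the same 43.9% held for coding genes. Of the 18 genes, 5 had a peak in mock only, 6 under Ara-C only and 1 under DNR only, so 66.7% (43.7 to 83.7) were in a single list, against 58.4% of coding genes with a promoter peak. IRF9 was the single gene with a promoter peak in all 3 lists, or 2.44% of the members, near the 2.50% of coding genes. For gene regions, 18 of the 41 had a peak in every list, or 43.9% (29.9 to 59.0), against 37.8%. TRIM22 and IFIT2 had none in any list, or 4.88% (1.35 to 16.1) of the members, against 14.8%.

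**Figure D2:**
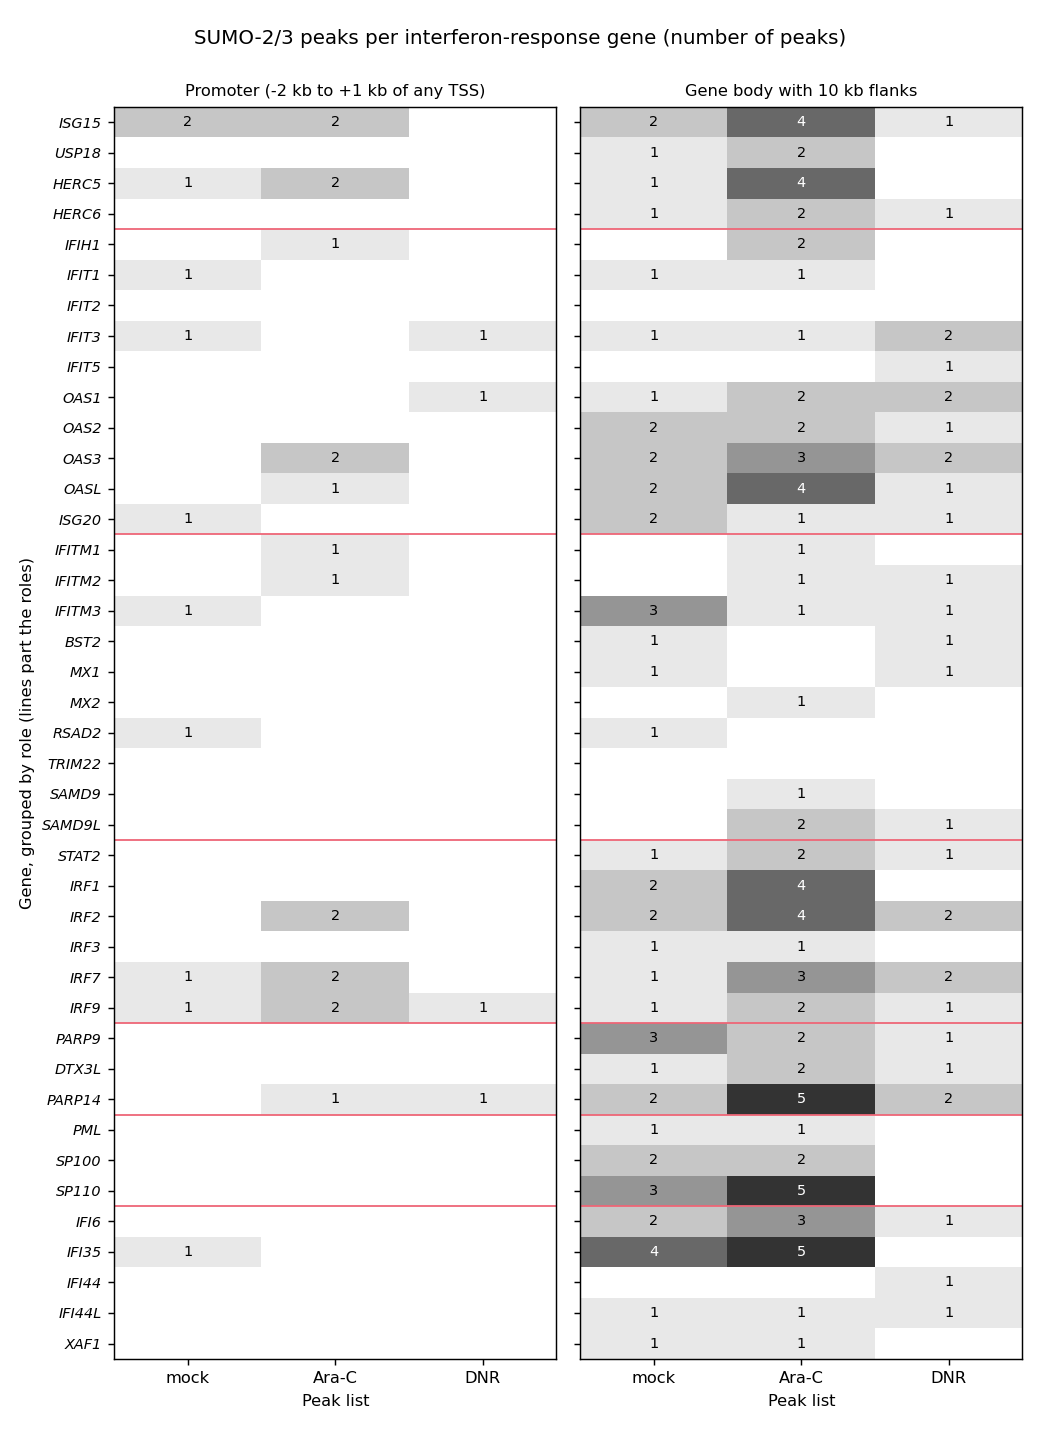
Number of SUMO-2/3 peaks at the promoter (left) and in the gene region (right) of each of the 41 genes, with the peak list on the x axis, the gene on the y axis and lines between the roles. Empty cells are 0; only IRF9 has a promoter peak in all 3 lists, 2.44% of the members where coding genes have 2.50%, and no gene has more than 2 promoter peaks in 1 list.

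In the accounts by role that follow, each group is small, and for every group and list the interval of the share of genes with a promoter peak included the share of coding genes given above. A count of 0 under DNR is therefore not set apart from the coding share of 8.43%. The ubiquitin-like modifier ISG15 and its enzymes had promoter peaks at 2 of 4 genes in mock and under Ara-C, and at 0 of 4 under DNR. ISG15, which is conjugated to proteins as ubiquitin is, had a mock peak of 150 bp at chr1:948501-948650, centred 302 bp upstream of its canonical TSS. A second mock peak of 150 bp lay at chr1:937351-937500, 907 bp downstream of an upstream annotated start. Under Ara-C its peaks were elsewhere, 200 bp wide at chr1:936251-936450 and 250 bp wide at chr1:946951-947200, and none overlapped a mock peak. The mock peak next to the canonical TSS was 1 of the 2 member promoter peaks that held an ISRE, at chr1:948562-948571, which is further upstream than the window searched above. Its sequence is shown for that reason, on the plus strand with the ISRE in capitals.

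ISG15 mock peak, chr1:948501-948650: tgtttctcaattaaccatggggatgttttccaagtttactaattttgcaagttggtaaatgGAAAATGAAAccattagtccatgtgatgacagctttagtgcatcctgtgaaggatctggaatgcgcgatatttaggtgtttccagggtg

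HERC5, the main ligase that attaches ISG15 to its targets, kept a promoter peak under Ara-C at the same place. The mock peak was 200 bp wide at chr4:89378651-89378850, in an intron and centred 480 bp downstream of the TSS. The Ara-C peak was also 200 bp wide, at chr4:89378701-89378900, and shared 150 bp with it. A further Ara-C peak of 150 bp at chr4:89378251-89378400 covered the canonical TSS, and the DNR list had no peak in the HERC5 region. The mock peak is printed in full as the member promoter peak of at least 200 bp that was found again, on the plus strand, and it held no ISRE, GAS or CTCF core match.

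HERC5 mock peak, chr4:89378651-89378850: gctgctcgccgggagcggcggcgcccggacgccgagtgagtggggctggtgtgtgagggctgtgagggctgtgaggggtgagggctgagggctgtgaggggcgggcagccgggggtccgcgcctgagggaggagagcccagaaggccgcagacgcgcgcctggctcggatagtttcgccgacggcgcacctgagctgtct

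USP18, the protease that removes ISG15, and HERC6, a paralogue of HERC5, had no promoter peak in any list. USP18 had an intronic mock peak of 300 bp at chr22:18639801-18640100. An Ara-C peak of 250 bp shared 200 bp with it, and DNR gave no peak in the USP18 region. HERC6 had 1 mock, 2 Ara-C and 1 DNR peak in its region.

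The RNA sensors and antiviral effectors had promoter peaks at 3 of 10 genes in mock, 3 of 10 under Ara-C and 2 of 10 under DNR. The genes differed from list to list, and IFIT3 alone had a promoter peak in more than 1 of them. IFIT1, which binds viral RNA ends, had a mock peak of 200 bp at chr10:91152401-91152600, centred 120 bp downstream of its TSS. The midpoint of this peak also lay in an annotated intron of the gene LIPA. ISG20, an RNA exonuclease, had a mock peak of 200 bp at chr15:89182051-89182250, centred 97 bp upstream of its canonical TSS. This peak covered the ISRE printed above, in a stretch partly annotated as UTR. Neither gene had a promoter peak under a drug.

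IFIT3, a partner of IFIT1, had promoter peaks at different starts. Its mock peak of 150 bp at chr10:91097501-91097650 lay 877 bp downstream of an internal start and 9821 bp from the canonical TSS. Its DNR peak of 200 bp at chr10:91087801-91088000 lay 146 bp downstream of the canonical TSS. Both IFIT3 peaks were also centred in an annotated intron of LIPA. OAS1, which makes the messenger that activates RNase L, had a promoter peak under DNR only, 150 bp wide at chr12:113343501-113343650 and centred 86 bp upstream of a start.

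The other promoter peaks of this group were in the Ara-C list alone. The double-stranded RNA sensor IFIH1 had 1 of 150 bp at chr2:163174251-163174400. OAS3, a relative of OAS1, had 2, of 150 bp at chr12:113374051-113374200 and 200 bp at chr12:113375701-113375900. OASL, a family member without synthetase activity, had 1 of 200 bp at chr12:121477101-121477300, centred 151 bp upstream of its TSS. IFIT2, IFIT5 and OAS2 had no promoter peak in any list.

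Among the proteins that restrict viruses at membranes or capsids, 2 of 10 genes had a promoter peak in mock, 2 of 10 under Ara-C and 0 of 10 under DNR. IFITM3, which blocks fusion of viruses in endosomes, had a mock peak of 150 bp at chr11:327501-327650, centred 6715 bp from its canonical TSS at an upstream start. RSAD2, the antiviral enzyme viperin, had a mock peak of 200 bp at chr2:7004101-7004300, centred 1488 bp upstream of its first start and inside an intron of the neighbouring gene CMPK2. IFITM1 and IFITM2, relatives of IFITM3, shared a single Ara-C peak of 150 bp at chr11:307951-308100. BST2, MX1, MX2, TRIM22, SAMD9 and SAMD9L had none, and TRIM22 had no peak anywhere in its region of 67480 bp.

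Promoter peaks lay at 2 of the 6 transcription factors in the mock list, at 3 in the Ara-C list and at 1 in the DNR list, and region peaks at 6, 6 and 4 of them. The intervals of these region shares included the 65.0%, 75.4% and 49.7% of coding genes. IRF7, which drives interferon gene transcription, had a mock peak of 200 bp at chr11:617001-617200, centred 1150 bp upstream of its canonical TSS. The midpoint of this peak lay in a UTR exon of the neighbouring gene CDHR5. Under Ara-C a peak of 200 bp at chr11:617301-617500, centred in a coding exon of CDHR5, lay 100 bp away from the mock peak without overlap. A second, of 150 bp at chr11:615751-615900, lay 96 bp downstream of a start. IRF2, which competes with IRF1 for ISRE sequences, had promoter peaks only under Ara-C, 250 bp wide at chr4:185393951-185394200 and 150 bp wide at chr4:185395801-185395950. The second is printed, on the plus strand, because it held a GAS match, in capitals.

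IRF2 Ara-C peak, chr4:185395801-185395950: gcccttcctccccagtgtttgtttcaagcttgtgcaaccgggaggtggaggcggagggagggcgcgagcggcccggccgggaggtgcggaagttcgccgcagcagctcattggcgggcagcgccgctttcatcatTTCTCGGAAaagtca

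IRF9, the DNA-binding subunit of the factor that recognises the ISRE, had a peak at the same place in every list. It was 150 bp wide in mock at chr14:24629851-24630000, 200 bp wide under Ara-C at chr14:24629901-24630100 and 150 bp wide under DNR at chr14:24629901-24630050. The Ara-C and DNR peaks each shared 100 bp with the mock peak. Ara-C added a peak of 200 bp at chr14:24630301-24630500, which covered the canonical TSS. That added peak held a GAS match and a match to the core motif of CTCF, an architectural DNA-binding protein. The CTCF core match, in capitals, is shown with its flanks, and the rest of the peaks is not printed because annotated UTRs cover them.

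IRF9, chr14:24630357-24630386, plus strand: agatgctgCTGCCCTCTAGTGGccgccagt

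The CTCF core was found in 1 of 41 member promoters and in 0.313% of coding genes. The remaining factors STAT2, IRF1 and IRF3 had no promoter peak in any list. In the region of IRF1, the founding member of the IRF family, a mock peak of 200 bp at chr5:131802201-131802400 shared 150 bp with an Ara-C peak. It lay 23654 bp downstream of the nearest IRF1 start, in an intron of an overlapping coding gene that has no symbol in the annotation. IRF3, which is activated by viral sensing, had an Ara-C peak of 350 bp inside the gene at chr19:50163201-50163550.

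In the ADP-ribosylation module, PARP14 had a promoter peak under both drugs and none in mock. The Ara-C peak was 200 bp wide at chr3:122398051-122398250, centred 1536 bp upstream of the TSS. The DNR peak was 250 bp wide at chr3:122400251-122400500, centred 689 bp downstream, so 2000 bp separated the 2 peaks. PARP9 and its partner ligase DTX3L, which are transcribed in opposite directions from a shared promoter holding an ISRE, had no promoter peak in any list.

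Neither PML, the scaffold of PML nuclear bodies, nor SP100 or SP110, related proteins that associate with these bodies, had a promoter peak in any list. Each had a region peak in mock and under Ara-C, and none had one under DNR. The interval for 0 of 3 genes, 0 to 56.1%, includes the 49.7% of coding genes with a DNR region peak, so this count is not set apart from the background. At PML the mock peak was 400 bp wide at chr15:74277201-74277600, 9614 bp upstream of the nearest PML start and inside an intron of STOML1, and no Ara-C or DNR peak overlapped it. SP110 had 3 region peaks in mock and 5 under Ara-C, of which a downstream pair of 250 bp and 300 bp shared 100 bp. SP100 had 2 region peaks in mock and 2 under Ara-C, and none of the Ara-C peaks overlapped a mock peak.

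Among the 5 other interferon-induced genes, IFI35, whose protein binds NMI, had the single promoter peak, in mock, 200 bp wide at chr17:41158801-41159000 and centred 99 bp downstream of the TSS. Its region had the highest mock density of the 29 separate loci that hold the members, 1.44 peaks per 10 kb, against 0.208 pooled over coding genes. Of its 4 mock peaks 3 lay nearest to a start of another gene, RPL27 or VAT1. It held 4 mock, 5 Ara-C and 0 DNR peaks. IFI6, IFI44, IFI44L and XAF1 had no promoter peak. In IFI6, whose protein restrains apoptosis, a mock peak of 200 bp at chr1:27995701-27995900 overlapped an exon and shared 150 bp with an Ara-C peak.

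**Figure D3:**
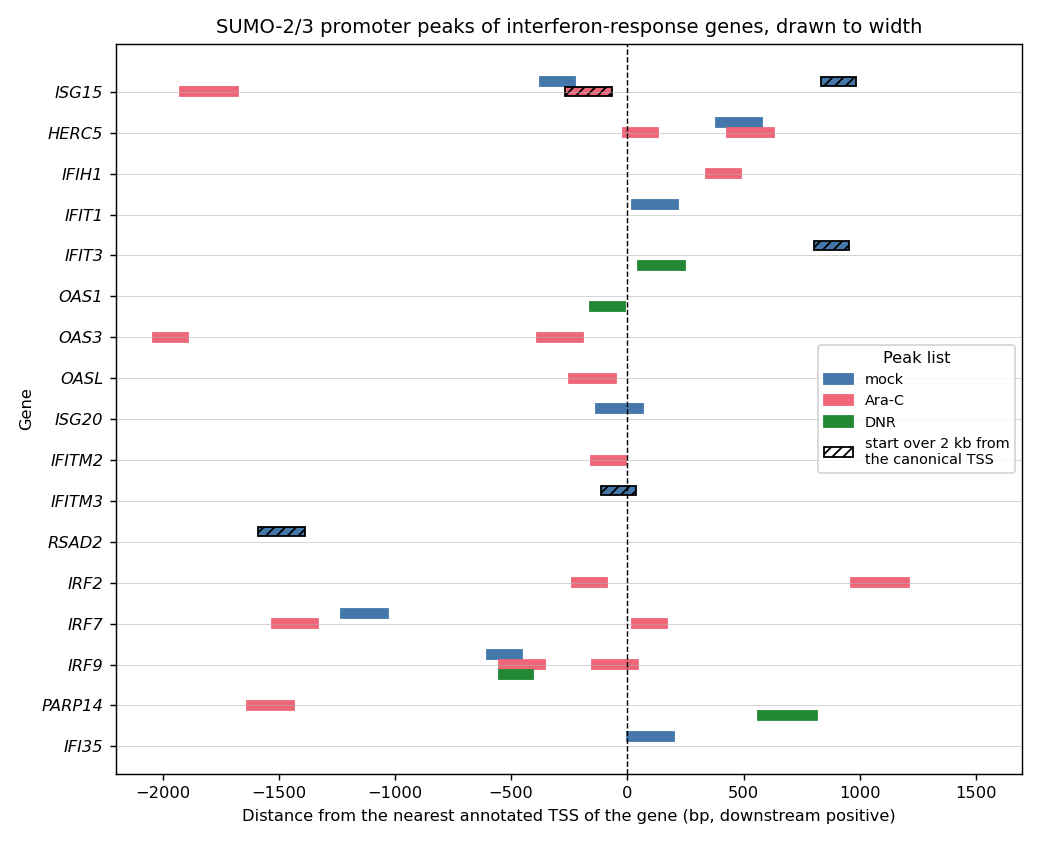
Promoter peaks of the interferon-response genes, drawn to width at their distance in bp from the nearest annotated TSS of the gene (x axis, downstream positive), 1 row per gene on the y axis and coloured by list. Hatched bars are measured from a start over 2 kb from the canonical TSS; the peak that IFITM1 shares is drawn at IFITM2, and IRF9 alone has bars of all 3 colours at 1 place.

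The widths of the member promoter peaks spanned a small range. The lists held 11 distinct promoter peaks in mock (5.49 to 19.7), 16 under Ara-C (9.15 to 26.0) and 4 under DNR (1.09 to 10.2). Every one was between 150 bp, the shortest that the calling allows, and 250 bp wide. No mock peak reached 250 bp (0 of 11, 0 to 25.9%), whereas 34.7% of the 5460 mock peaks at coding promoters did. The lower bound over coding genes, 33.4%, lay above the upper bound of the members. The width set for a wide peak was 300 bp, and the 250 bp cut lies just above the widest member mock peak, 200 bp. Under Ara-C 2 of 16 peaks reached 250 bp, or 12.5% (3.50 to 36.0), against 32.7%. Under DNR 1 of 4 did (4.56 to 69.9%), against 17.2%. No peak reached 300 bp in any list, where 21.8% of mock, 20.0% of Ara-C and 7.85% of DNR peaks at coding promoters did. The intervals of the members included these shares in mock (0 to 25.9%) and under DNR, and left out the Ara-C share (0 to 19.4%).

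**Figure D4:**
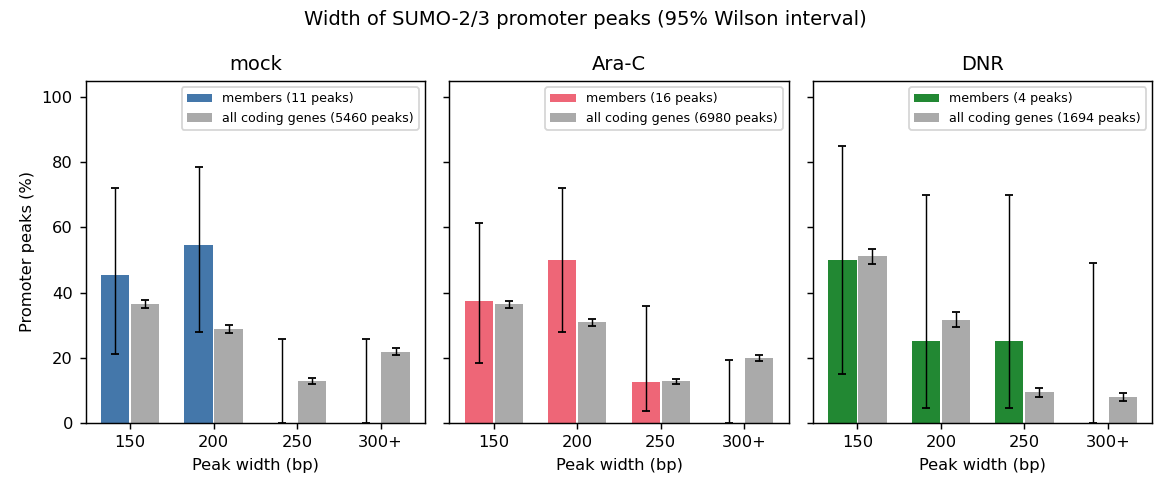
Share of promoter peaks in each width class, in percent on the y axis, with width in bp on the x axis and 1 panel per list; coloured bars are member promoters, grey bars all coding promoters, and error bars 95% Wilson intervals. The member bars are at 0 for 300 bp or more in all 3 lists, where the grey bars reach 21.8%, 20.0% and 7.85%, and only the Ara-C interval of the members leaves its grey bar's value out.

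In gene regions the members had 48 distinct mock peaks, 74 distinct Ara-C peaks and 27 distinct DNR peaks. The Ara-C number was 1.54 times and the DNR number 0.563 times that of mock, and over coding genes the ratios were 1.59 and 0.693. Peaks of 300 bp or more made up 3 of 48, 4 of 74 and 0 of 27. Over coding genes their shares were 10.8%, 8.77% and 4.78%, inside the members' intervals in each list. The widest was an Ara-C peak of 600 bp in an intron of OAS2.

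Few mock promoter peaks had a counterpart under a drug. Under Ara-C 2 of the 11 were overlapped by at least 1 bp, those of HERC5 and IRF9, or 18.2% (5.14 to 47.7), against 36.3% at coding promoters. Under DNR 1 of the 11 was, that of IRF9, or 9.09% (1.62 to 37.7), against 4.18%. Both intervals included the coding value. Accepting an Ara-C peak within 500 bp raised the members to 4 of 11, or 36.4%, against 50.3%. At coding promoters the share found again under Ara-C rose with width. It was 16.8% for mock peaks of 150 bp, 30.0% for those of 200 bp and 62.1% for those of 250 bp or more. The members had 5 mock peaks of 150 bp and 6 of 200 bp, of which 1 each was found again under Ara-C, and none wider. Whether width accounts for the share of the members was not tested.

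Counted by gene, 4 of the 10 genes with a mock promoter peak also had one under Ara-C, or 40.0% (16.8 to 68.7), against 62.4% of coding genes. The 4 were ISG15, HERC5, IRF7 and IRF9, and at ISG15 and IRF7 the 2 lists had peaks at different places in the promoter. The share rested on which starts were used, since with the 5′ end of each gene alone 5 of 8 genes kept one, or 62.5%, against 59.6%. Under DNR 2 of the 10 had one, IFIT3 and IRF9, or 20.0% (5.67 to 51.0), against 13.9%. Of the 31 genes without a mock promoter peak, 7 had one under Ara-C, or 22.6% (11.4 to 39.8), against 20.2%. Under DNR 2 of the 31 had one, OAS1 and PARP14, or 6.45% (1.79 to 20.7), against 6.59%.

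A gene region is far longer than a peak, so it holds some peak in another list more readily than a given peak is overlapped. A region peak was also present under Ara-C in 28 of the 31 genes with one in mock, or 90.3% (75.1 to 96.7), against 89.3%. Under DNR it was present in 20 of the 31, or 64.5% (46.9 to 78.9), against 61.8%. Of the 10 genes without a mock region peak, 6 had one under Ara-C, or 60.0% (31.3 to 83.2), against 49.6%, and 4 under DNR, against 27.2%. By position, 8 of the 48 mock region peaks were overlapped under Ara-C, or 16.7% (8.70 to 29.6), against 18.2%. Under DNR 2 of the 48 were overlapped, or 4.17% (1.15 to 14.0), against 3.05%.

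When peaks of the 3 lists that shared at least 1 bp were merged, the member regions gave 139 merged peaks, of which 8 were called in at least 2 lists. That is 5.76% (2.94 to 10.9), against 7.04% for coding genes. Beside HERC5, IRF9, USP18, IRF1, SP110 and IFI6 described above, they were at IFI35, next to the start of the neighbouring gene VAT1, and in OAS2. By this rule the 8 included no merged peak of mock and DNR only and none of Ara-C and DNR only (0 to 2.69% each), against 0.452% and 0.665% for coding genes. A mock and a DNR peak in the BST2 region abutted without a shared base and were not merged.

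OAS2, the synthetase of intermediate size in its family, and IRF9 held the 2 merged peaks called in all 3 lists. They were 1.44% (0.395 to 5.09) of the merged peaks, against 0.570% for coding genes. The OAS2 peak lay in an intron, 14259 bp downstream of a TSS at its Ara-C midpoint. It was 300 bp wide in mock at chr12:113430651-113430950, 600 bp wide under Ara-C at chr12:113430351-113430950 and 150 bp wide under DNR at chr12:113430601-113430750. The Ara-C peak spanned all 300 bp of the mock peak, and the DNR peak shared 100 bp with it. A CTCF core match at chr12:113430735-113430748 lay in all 3 peaks, and the mock peak held a GAS match as well. The mock peak is printed on the plus strand as the place called in every list, with the CTCF core first and the GAS second in capitals.

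OAS2 mock peak, chr12:113430651-113430950: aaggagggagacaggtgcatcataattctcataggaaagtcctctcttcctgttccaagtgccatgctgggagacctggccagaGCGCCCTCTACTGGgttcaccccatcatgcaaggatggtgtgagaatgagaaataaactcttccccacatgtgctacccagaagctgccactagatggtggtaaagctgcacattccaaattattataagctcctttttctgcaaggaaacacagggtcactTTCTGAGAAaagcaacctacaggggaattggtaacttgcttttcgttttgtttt

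In the member regions the CTCF core was found in 1 mock peak among 48, in 3 Ara-C peaks among 74 and in 1 DNR peak among 27. The other Ara-C matches were in the added IRF9 peak and in the peak downstream of SP110. Over the whole lists, not the regions of coding genes alone, the core was found in 2.55%, 1.56% and 0.555% of peaks. The members' intervals were 0.369 to 10.9%, 1.39 to 11.3% and 0.657 to 18.3%. Only the DNR interval left out the value of its list, and it rested on the single OAS2 peak.

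**Figure D5:**
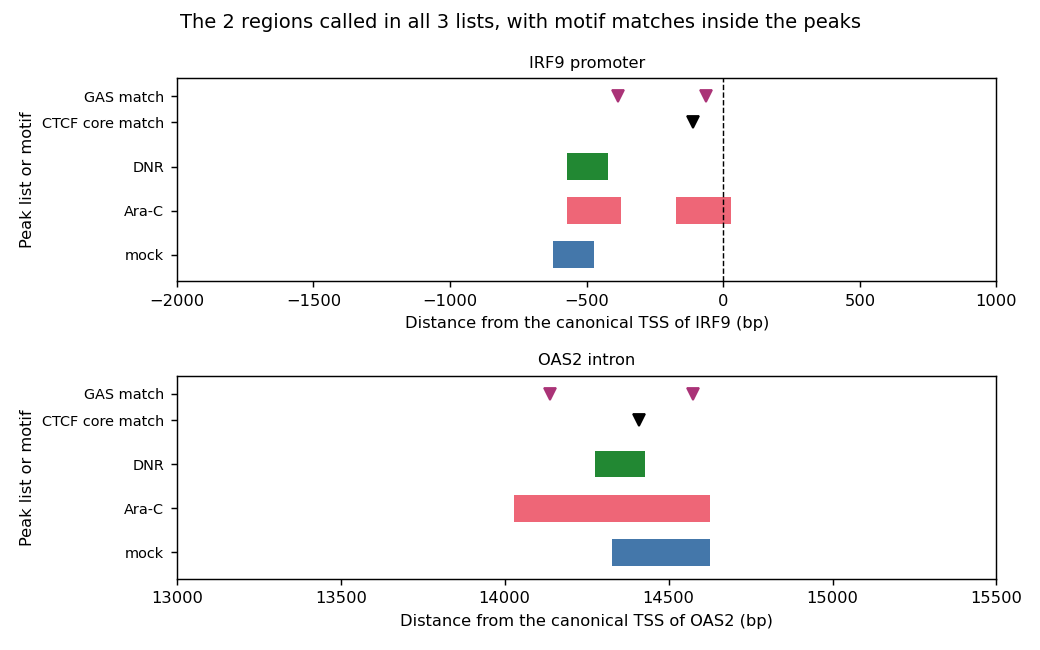
Peaks of the 3 lists (y axis) at the IRF9 promoter (top) and in the OAS2 intron (bottom), by distance in bp from the canonical TSS (x axis), with triangles at CTCF core and GAS matches inside the peaks. At OAS2 the CTCF core lies in all 3 peaks, of 300, 600 and 150 bp, and at IRF9 it lies only in the added Ara-C peak.

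The ISRE matches were then compared with the peaks. The 22 promoters held 40 ISRE matches counted by gene, PARP9 and DTX3L sharing one site. Of these, 1 was covered by a mock peak, that of ISG20, and 0 were covered under Ara-C or DNR. The shares were 2.50% (0.443 to 12.9) in the mock list and 0% (0 to 8.76) in the others. Over the 706 ISRE matches of all coding promoters they were 5.81%, 5.10% and 0.425%, inside the members' intervals. At the other genes printed above, the nearest mock promoter peak lay 113 bp from the match at ISG15 and 445 bp from it at HERC5. At IFIT1 the distance was 114 bp. At IFIT3, IFITM3 and RSAD2 the mock peak belonged to another start and lay 9859 bp, 6588 bp and 13462 bp away. The shortest distance under Ara-C was 45 bp, at HERC5, and the shortest under DNR was 159 bp, at IFIT3. Of the 12 GAS matches, 2 were covered, both under Ara-C, at IRF2 and IRF9, or 16.7% (4.70 to 44.8), against 6.69% over coding promoters.

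The intervals for genes with and without an ISRE overlapped in every list. In mock 7 of 22 genes with an ISRE had a promoter peak, or 31.8% (16.4 to 52.7), and 3 of 19 without one, or 15.8% (5.52 to 37.6). Under Ara-C the counts were 6 of 22 and 5 of 19, and under DNR 2 of 22 and 2 of 19. Over all coding genes 24.0% of those with an ISRE and 25.6% of those without had a mock promoter peak. The coding shares were 27.0% and 31.4% for Ara-C, and 7.42% and 8.54% for DNR, all inside the members' intervals.

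Promoter peaks were also counted by CpG class. In the tertile of promoters poorest in CpG, 7 of 26 members had a mock promoter peak, or 26.9% (13.7 to 46.1), against 13.0% of all coding genes in that tertile. For Ara-C it was 15.4% against 17.9%, and for DNR 11.5% against 6.92%. Of the 11 mock promoter peaks 4 lay over 5000 bp from the canonical TSS, at ISG15, IFIT3, IFITM3 and RSAD2. With the window of the canonical TSS alone, the lowest tertile gave 4 of 26 in mock, or 15.4% (6.15 to 33.5), against 10.2%. With all starts, 7 of 11 members of the middle tertile had a promoter peak under Ara-C, or 63.6% (35.4 to 84.8), against 36.0%, and also 7 of 11 against 32.4% by the canonical TSS. The middle tertile gave 27.3% against 30.2% in the mock list and 9.09% against 9.38% in the DNR list. No member of the highest tertile, USP18, IFIT5, MX1 and IRF1, had a promoter peak in any list, against 33.5%, 39.8% and 9.20% of coding genes in the mock, Ara-C and DNR lists, all inside the interval that 0 of 4 allows. Of these 9 member shares, only the mock share of the lowest tertile had an interval that left out the coding share. With the canonical TSS alone it was the Ara-C share of the middle tertile instead.

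The pathway above these genes was described by 28 receptors, kinases, sensing adaptors, negative regulators and other IRF genes. A promoter peak was present at 7 of the 28 in the mock list, at 7 in the Ara-C list and at 2 in the DNR list. None of the 28 had one in all 3 lists (0 to 12.1%), an interval that includes the 2.50% of coding genes. For the single lists the intervals were 12.7 to 43.4%, 12.7 to 43.4% and 1.98 to 22.6%, and they included the 25.3%, 30.9% and 8.43% of coding genes. Region peaks were present at 21, 25 and 14 of the 28 (56.6 to 87.3%, 72.8 to 96.3% and 32.6 to 67.4%), against 65.0%, 75.4% and 49.7%, again inside the intervals. By class, 4 of 8 receptor and kinase genes, 1 of 10 sensing genes, 2 of 6 negative regulators and 0 of 4 other IRF genes had a mock promoter peak. The following names were chosen after their values were seen. IFNGR1, a chain of the interferon gamma receptor, had 3 mock promoter peaks, 0 under Ara-C and 2 under DNR. SOCS3, a feedback inhibitor of cytokine signalling, had a promoter peak of 400 bp in mock and 250 bp under Ara-C, and none under DNR. Of the mock promoter peaks at upstream genes, 4 of 10 were 300 bp or wider, or 40.0% (16.8 to 68.7), an interval that includes the coding share of 21.8%. For Ara-C it was 2 of 12, or 16.7%, against 20.0%, and for DNR 0 of 3 (0 to 56.1%), against 7.85%.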

How the data were processed

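The deposited files were 3 lists of peak positions (chromosome, start and end), 1 per condition, with no height, score or read number. As the authors describe, reads were aligned to hg19, and CASAVA 1.8.2 is named in the submitters' processing notes. The authors removed artefactual pile-ups, extended reads, binned the signal by 50 bp and subtracted input with Pasha. Their peak caller kept stretches over 100 bp long whose signal passed 32, and it bridged gaps up to 100 bp. A fixed value makes the number and width of peaks depend on depth and scaling, and the depth is unknown.

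Here, starts were made 1-based and the mitochondrial chromosome was dropped. Genes and 55815 start sites came from basic protein-coding transcripts of GENCODE 44 lifted to GRCh37. A gene had a peak if at least 1 bp overlapped its window, and peaks shared by neighbouring genes were counted once among distinct peaks. No test was possible with 1 library per condition, and no p-value is given. Counts were tested on simulated data and checked against bedtools 2.31.1, with 0 differences. Python 3.11.15, numpy 2.4.6, pandas 2.3.3, scipy 1.17.1 and matplotlib 3.10.9 were used.

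All 41 genes are accounted for. Each gene with a promoter peak is named with positions, and the others are named by role. The genes and lists were chosen with earlier results of these data known. The printed peaks were taken from the member promoter peaks of largest mock width, or with a motif, that lie outside UTRs, and not every such peak is shown. The intronic OAS2 peak was added after its values were seen, and elsewhere sites of at most 30 bases are shown.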

Additional observations from a re-analysis of the deposited data

How the results depend on the processing

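No paired analysis was possible because a condition was represented by a single pooled library, and none could be left out. Alternatives covered peak width, promoter and region windows, transcripts, overlap rules, loci and the dense part of chromosome 8. The canonical TSS alone was added after the data were seen. Of 86 alternative values for 13 results, 67 stayed within the interval of the reported share or within 1.5 times the reported number, and 19 did not. Peaks of at least 200 bp lowered the genes with a region peak to 43.9%, 61.0% and 26.8% (mock, Ara-C and DNR). The gene body alone gave 48.8%, 61.0% and 31.7%, and flanks without promoter windows 36.6%, 39.0% and 26.8%, where coding genes had 35.1%, 46.0% and 23.1%. Counting each locus once raised the mock region share to 89.7% of 29 loci. Promoter shares by locus were 31.0%, 34.5% and 13.8% (mock, Ara-C and DNR). Locus shares cannot be set beside those of coding genes, 65.0% for mock regions, because 8 loci join the windows of several members. Distinct promoter peaks of at least 200 bp numbered 6, 10 and 2. Mock promoter peaks numbered 7 from 2 kb upstream to the TSS, and 7 by the canonical TSS alone. Every annotated transcript gave 26 under Ara-C and 9 under DNR. At 200 bp or wider, no mock promoter peak (0%) was found again under DNR and no gene (0%) kept one there, because the IRF9 and IFIT3 mock peaks were 150 bp wide. The depth of the libraries limits all shares and could not be varied.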
